A study of Mus musculus with 21 samples.

Results

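The genes described here are 9 mouse genes of heme synthesis and iron uptake: Alas1, Alas2, Alad, Uros, Urod, Cpox, Ppox and Fech, which encode enzymes of the pathway, and Tfrc, which encodes transferrin receptor 1. They were chosen by name, matched through their Ensembl identifiers, and all 9 were found among the 47643 genes counted. RNA was sequenced from 21 libraries of sorted bone marrow progenitors of untreated, young adult C57/B6 mice, 3 libraries for each of 7 populations, to ask how surface staining for CD62L divides common myeloid progenitors (CMPs) and granulocyte-monocyte progenitors (GMPs). The populations were CD62L-high, CD62L-int and CD62L-neg GMPs, bulk GMPs, CD62L-high and CD62L-neg CMPs, and bulk CMPs. The labels name the CD62L-int GMPs CD62L-low GMP and the CD62L-neg CMPs CD62L-low CMP. All cells were lineage-negative, SCA-1-negative, c-KIT-positive and CD34-positive. GMPs carried CD16/32 and CMPs did not, and the CD62L fractions were cut from a continuous range of staining, so each is a gate and not a clone or a pure lineage. CMPs were split in 3 by staining, while the CD62L-high and CD62L-neg GMPs were narrow cuts at its ends, so a name shared by both gates does not mark one CD62L level. Whether libraries of a group came from separate mice was not stated in the labels, so p-values measure the spread between these libraries.

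Heme is an iron-containing ring that carries the oxygen of globin, the electrons of cytochromes and the active site of peroxidases. Its synthesis starts in mitochondria with 5-aminolevulinate synthase, the rate-limiting step, which has a housekeeping form (Alas1) and an erythroid form (Alas2). Alad, Uros, Urod, Cpox, Ppox and Fech act after it, in that order, and Fech places iron in the finished ring. Not every enzyme of the pathway is among them. Tfrc takes up iron bound to transferrin and is known for its high level in red cell precursors and in dividing cells, while myeloid progenitors use heme for myeloperoxidase and the phagocyte oxidase.

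Tfrc and Alas2 are textbook targets of the iron regulatory proteins, which bind hairpins called iron-responsive elements. An element in the 5′ untranslated region holds back translation, which an RNA level does not show. Elements in the 3′ untranslated region protect the RNA from decay, so they can act on the RNA level itself. Iron control was not measured here. A C, a paired stem of 5 bases on each side (G-U pairs allowed) and the 6-base loop CAGTGN whose last base is not G were searched in the longest coding transcript of 3 genes. Tfrc-201 held 4 such elements, Alas2-201 held 1 and Alas1-207, of 3399 bases, held 0. They are shown with the loop in capitals, 30 bases each, as read from the GENCODE transcripts on GRCm38.
Tfrc element 1, 3′ untranslated region, chr16:32631219-32631248, plus strand: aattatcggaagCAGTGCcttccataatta
Tfrc element 2, 3′ untranslated region, chr16:32631598-32631627, plus strand: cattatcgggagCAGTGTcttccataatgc
Tfrc element 3, 3′ untranslated region, chr16:32631663-32631692, plus strand: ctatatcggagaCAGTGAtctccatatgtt
Tfrc element 4, 3′ untranslated region, chr16:32631710-32631739, plus strand: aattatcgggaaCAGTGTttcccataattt
Alas2 element, 5′ untranslated region, chrX:150547458-150552150, plus strand, across a splice junction: ttggttcgtcctCAGTGCagggcaacagga

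The starts of the 2 synthase genes are shown for the motifs of GATA and KLF factors, which drive red cell genes. RefSeq windows of 300 bases (250 before to 50 after a start, GRCm38.p6) were at hand for 8 of the 9 genes, 12 windows in all. A GATA motif (A or T, then GATA, then A or G, on either strand) was found in 3 of the 12 windows (25%), of Alas2, Cpox and Uros, against 29.8% of 32851 windows of all genes. A CACCC-type motif (CCNCNCCC, either strand, overlaps allowed) was found in 11 of the 12 windows (91.7%), against 49.5% of all windows. The windows of Alad, of Alas1 and of Tfrc overlap in pairs and share matches, so the 12 windows are not independent. Base composition was not matched, and no enrichment was tested. The 250 bases before the start are printed with matches in capitals, and a match on the other strand appears as its reverse complement.
Alas2, chrX:150547167-150547416, plus strand: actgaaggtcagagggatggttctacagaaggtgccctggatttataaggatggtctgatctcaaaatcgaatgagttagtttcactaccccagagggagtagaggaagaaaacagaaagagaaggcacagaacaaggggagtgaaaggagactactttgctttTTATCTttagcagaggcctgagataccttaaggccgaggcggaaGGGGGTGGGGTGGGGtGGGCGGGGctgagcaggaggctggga
Alas1, first of 2 starts, chr9:106247955-106248204, minus strand: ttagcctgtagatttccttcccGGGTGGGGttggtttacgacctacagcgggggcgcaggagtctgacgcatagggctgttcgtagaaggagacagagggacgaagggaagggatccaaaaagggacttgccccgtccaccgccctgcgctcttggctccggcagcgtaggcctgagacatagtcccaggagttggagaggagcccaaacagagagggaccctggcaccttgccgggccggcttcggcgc
The Alas2 window held 1 GATA match, at position -86 from its start, and 4 CACCC-type matches. Neither Alas1 window held a GATA match. A match is a string of letters here, and no binding was measured.

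Libraries held 6145834 to 15263573 counts, and depth differed between groups, since the CD62L-neg CMP libraries held 7062317 to 7509818 and the CD62L-high CMP libraries 11683991 to 14650082. Between 22.4% and 41.1% of the counts in 20 libraries fell on 3 gene models (Gm23935, Gm26917, Gm42418), and 61.0% in bulk CMP replicate 2, where protein-coding genes held 30.7%. The 41.1% came from CD62L-high GMP replicate 1, where protein-coding genes held 52.2%. The next highest share was 31.7%, in CD62L-neg CMP replicate 2. Levels are given as CPM, counts scaled to the size of the library after TMM scaling. Fcgr3, which encodes CD16, followed the sort of GMPs and CMPs: it averaged 139 CPM in bulk GMPs and 7.88 CPM in bulk CMPs. Erythroid markers (15 genes such as Gata1, Klf1 and Epor) summed to 1133 to 1330 CPM in CD62L-neg CMPs, 412 to 511 CPM in bulk CMPs, 72.4 to 98.3 CPM in CD62L-high CMPs and 12.1 to 155 CPM in the GMP libraries. Globin genes summed to at most 6.62 CPM in any library. These are bulk measurements, in which fewer cells of a type and less RNA per cell cannot be told apart.

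Of the 9 genes, 8 passed the filter on low counts and entered the test (edgeR quasi-likelihood test over all 21 libraries, Benjamini-Hochberg adjusted over 14801 genes, passed at an adjusted p under 0.05). Across the 7 populations jointly, 4 of the 8 varied: Alas1 (adjusted p = 9.18e-15), Tfrc (1.96e-06), Urod (0.00331) and Alad (0.014). Of all genes tested, 39% passed the same joint test. Fech (adjusted p = 0.0865), Cpox (0.283), Ppox (0.531) and Uros (0.883) did not pass. The 4 that passed were the first enzyme, 2 of the later ones and the receptor, and their order over the populations was not the same.

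**Figure D1:**
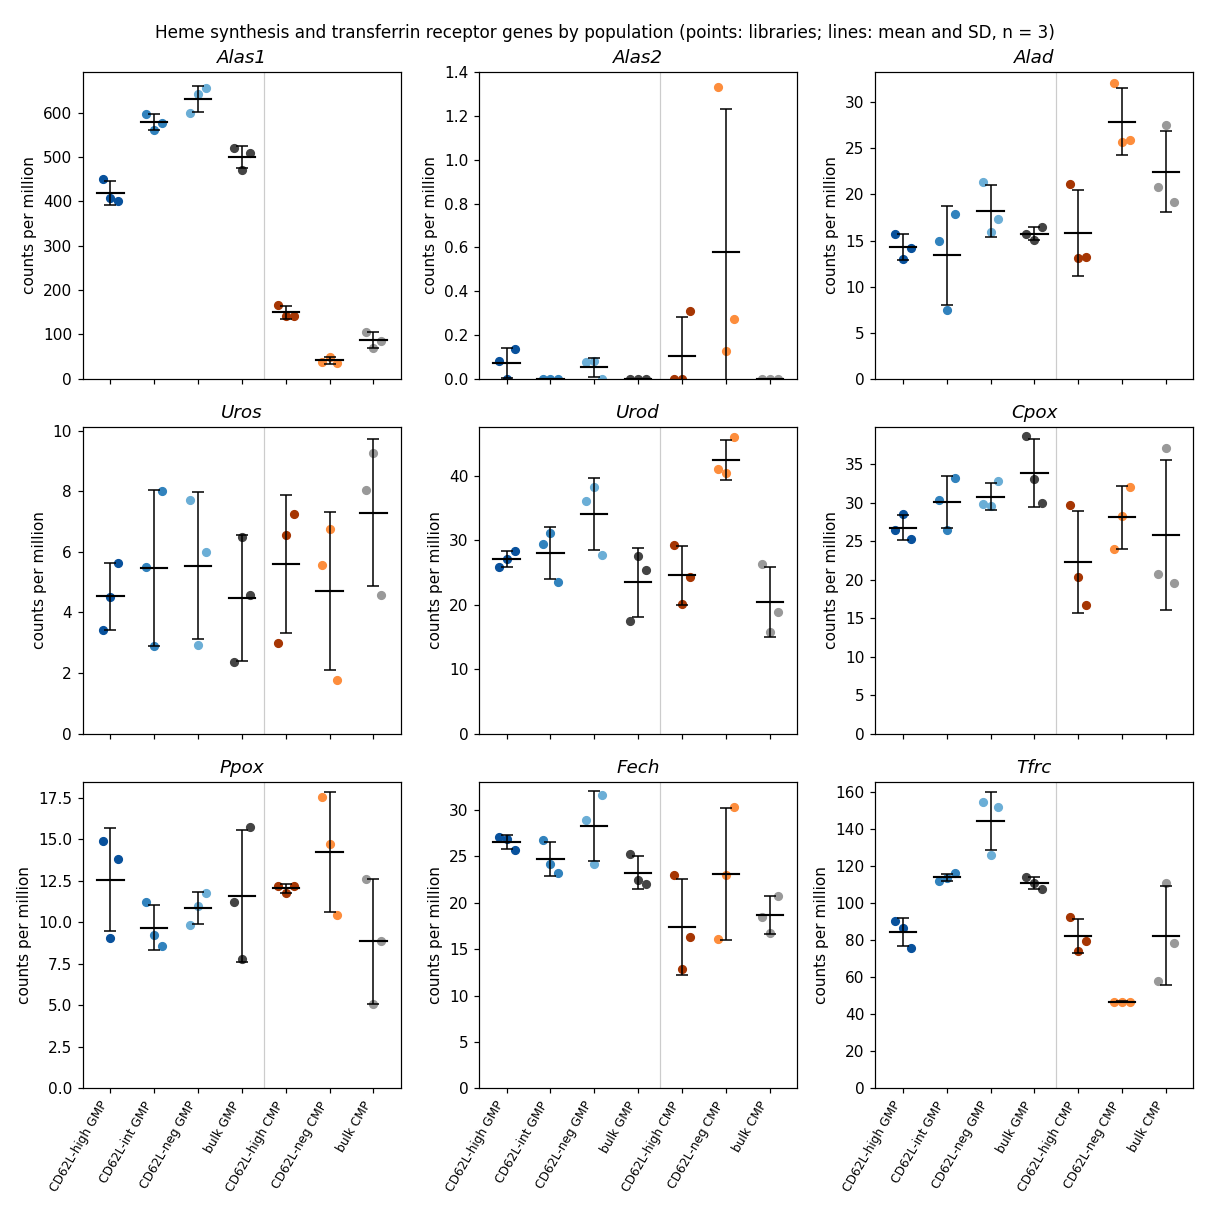
CPM (vertical axes, each starting at 0) of the 9 genes in the 7 populations, with GMPs left of the grey line and CMPs right of it. Points are libraries and black lines the mean and SD (n = 3); Alas1 separates the GMP libraries (401 to 655 CPM) from the CMP libraries (35.7 to 165 CPM), Tfrc is lowest in CD62L-neg CMPs, and Alas2 stays under 1.4 CPM.

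Alas1, the housekeeping first enzyme (chr9:106233455-106248654), had the widest range of the 8 genes tested. Its levels were 451, 407 and 401 CPM in CD62L-high GMPs, 598, 562 and 578 CPM in CD62L-int GMPs, 599, 642 and 655 CPM in CD62L-neg GMPs and 521, 472 and 509 CPM in bulk GMPs. In CMPs they were 165, 141 and 142 CPM in CD62L-high cells, 38.0, 48.9 and 35.7 CPM in CD62L-neg cells and 105, 69.4 and 83.8 CPM in bulk cells. Ordered from low to high, the populations were CD62L-neg CMPs, bulk CMPs, CD62L-high CMPs, CD62L-high GMPs, bulk GMPs, CD62L-int GMPs and CD62L-neg GMPs, and the libraries of neighbours did not overlap. The last step of that order was not separated by the test: CD62L-int GMPs differed from CD62L-neg GMPs by -0.12 ± 0.14 on the log2 scale (SE, adjusted p = 0.791, edgeR).

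Tfrc (chr16:32608920-32632794) followed a narrower range. Its levels were 90.4, 86.8 and 75.9 CPM in CD62L-high GMPs, 112, 114 and 116 CPM in CD62L-int GMPs, 155, 126 and 152 CPM in CD62L-neg GMPs and 114, 111 and 108 CPM in bulk GMPs. In CMPs they were 92.6, 74.5 and 79.6 CPM in CD62L-high cells, 47.0, 46.5 and 46.9 CPM in CD62L-neg cells and 57.9, 111 and 78.7 CPM in bulk cells. CD62L-neg CMPs were lowest and CD62L-neg GMPs highest, without overlap with any other population. CD62L-high CMPs, bulk CMPs and CD62L-high GMPs overlapped one another, as did bulk and CD62L-int GMPs. Bulk CMPs also overlapped bulk GMPs, through bulk CMP replicate 2 at 111 CPM.

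CD62L-high CMPs against CD62L-neg CMPs asks how the genes differ within the CMP gate. Alas1 was 3.65-fold higher in CD62L-high CMPs and Tfrc 1.76-fold higher, while Urod, which forms coproporphyrinogen, and Alad, which joins 2 aminolevulinate molecules, were lower. Of 8 genes tested, 2 were thus higher, where 9.94% of all genes were, and 2 lower, where 7.27% were. Alas1 rose by 1.87 ± 0.15 on the log2 scale (SE, adjusted p = 3.01e-09) and Tfrc by 0.81 ± 0.17 (adjusted p = 0.00109, edgeR). Urod stood at 29.3, 20.1 and 24.3 CPM in CD62L-high CMPs, against 41.0, 40.5 and 46.1 CPM in CD62L-neg CMPs, a log2 difference of -0.79 ± 0.21 (adjusted p = 0.00799, edgeR). Alad stood at 21.2, 13.1 and 13.2 CPM in CD62L-high CMPs, against 32.1, 25.7 and 26.0 CPM in CD62L-neg CMPs (-0.82 ± 0.26, adjusted p = 0.0289, edgeR). For both enzymes every CD62L-high library lay below every CD62L-neg library. The Urod call was lost without CD62L-high CMP replicate 2 (adjusted p = 0.0627), and the Alad call without CD62L-neg CMP replicate 1, CD62L-high CMP replicate 2 or CD62L-high CMP replicate 3 (adjusted p = 0.116, 0.134 and 0.132). Erythroid markers moved with Urod and Alad: 13 of 13 tested were lower in CD62L-high CMPs. So were 10 of 10 megakaryocyte markers, and of 6 mast cell and basophil markers 5 were lower and 1 higher. The part of these markers in the 2 enzymes was not tested. Monocyte markers moved with Alas1 and Tfrc: 7 of 7 were higher in CD62L-high CMPs, with a median summed level of 1723 CPM in CD62L-high CMPs, against 57.8 CPM in CD62L-neg CMPs, and their part in the 2 genes was not tested.

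The other enzymes did not pass in that comparison, and their libraries overlapped. Cpox, which makes protoporphyrinogen, differed by -0.34 on the log2 scale with a 95% interval of -0.80 to 0.12. Fech, which inserts the iron, differed by -0.41 with an interval of -0.86 to 0.04. Ppox, which oxidises the ring, differed by -0.24 with an interval of -0.86 to 0.37. Uros, which closes it, differed by 0.25 with an interval of -0.80 to 1.31. Uros had at most 7.24 CPM in CD62L-high CMPs and at most 6.77 CPM in CD62L-neg CMPs, and its interval still allows a log2 difference of 1.

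CD62L-high GMPs against CD62L-neg GMPs set the ends of the staining range within the GMP gate against each other, a different cut from that in CMPs. Both Alas1 and Tfrc were lower in CD62L-high GMPs, and none of the 6 other enzymes tested passed. Alas1 differed by -0.59 ± 0.15 on the log2 scale (adjusted p = 0.00545) and Tfrc by -0.78 ± 0.17 (adjusted p = 0.00165, edgeR). Of 8 genes, 0 were higher, where 8.28% of all genes were, and 2 were lower, where 8.65% were. Neither change reached 2-fold, so neither passes where a fold over 2 is also asked. Urod stood at 25.8, 27.1 and 28.3 CPM in CD62L-high GMPs, against 36.1, 38.3 and 27.7 CPM in CD62L-neg GMPs, which overlap (-0.33 ± 0.20, adjusted p = 0.308, edgeR). Markers of other cell types also differed here, some in the direction of Alas1 and Tfrc and some against it. Of 6 mast cell and basophil markers 6 were lower in CD62L-high GMPs (median log2 change -7.34), with a summed level of 41.9 to 58.9 CPM in CD62L-high GMPs, against 1130 to 1789 CPM in CD62L-neg GMPs, and the mast cell protease gene Cpa3 was at 0 in every CD62L-high GMP library. Of 13 erythroid markers tested 9 were lower and of 10 megakaryocyte markers 7 were lower and 1 higher. Of 7 monocyte markers 6 were higher and 1 lower, with a median summed level of 3062 CPM in CD62L-high GMPs, against 445 CPM in CD62L-neg GMPs. The part of these markers in the 2 genes was not tested.

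The change from CD62L-neg to CD62L-high cells was opposite in the 2 gates for Alas1 and Tfrc, and the difference itself was tested. CD62L was only a sorting stain, so these are contrasts of sorted fractions. For Alas1, the change in GMPs minus that in CMPs was -2.46 ± 0.21 on the log2 scale (adjusted p = 4.88e-08), and for Tfrc it was -1.59 ± 0.24 (adjusted p = 8.63e-05, edgeR). No other gene of the 8 passed. This test called 2.3% of all genes in the positive direction and 5.05% in the negative one. The point estimates of Urod and Alad were below 0 in both gates, and their differences between gates, 0.46 with a 95% interval of -0.14 to 1.06 and 0.47 with an interval of -0.28 to 1.22, did not pass. In the same test 4 of 5 sort marker genes, 6 of 6 mast cell and basophil markers (median -5.68) and 4 of 7 monocyte markers were negative, and 1 monocyte marker was positive. Most mast cell, basophil and monocyte markers had the same sign in both gates. Monocyte markers were mostly higher with CD62L in CMPs (7 of 7) and in GMPs (6 higher, 1 lower). Mast cell and basophil markers were mostly lower in CMPs (5 lower, 1 higher) and in GMPs (6 of 6). Their part in the difference was not tested, and the unlike cuts of the 2 gates cannot be told apart from the gates themselves.

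**Figure D2:**
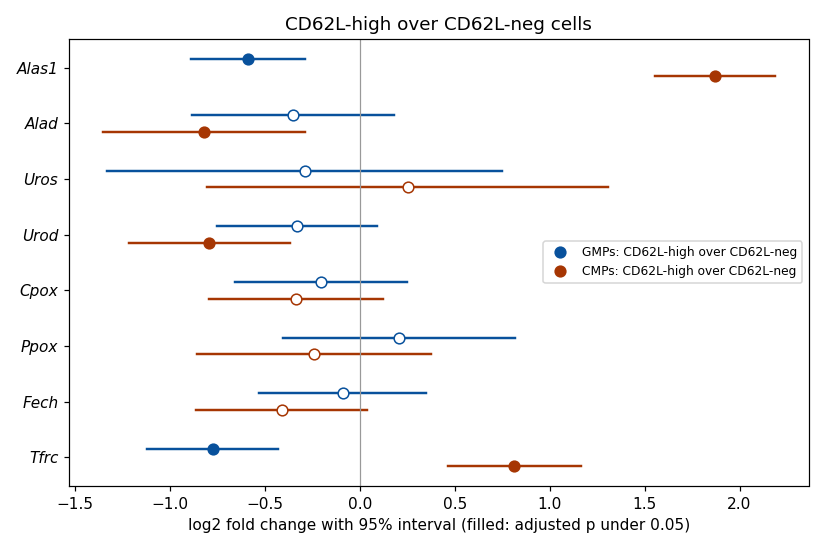
Log2 fold change of CD62L-high over CD62L-neg cells (horizontal axis) for the 8 genes tested, in GMPs (blue) and CMPs (brown), with 95% intervals. Filled points passed at an adjusted p under 0.05; Alas1 and Tfrc lie left of 0 in GMPs and right of 0 in CMPs, and Urod and Alad are filled in CMPs only.

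The CD62L-int GMPs give a further point in the gate. The paper describes them as a narrow cut at the low end of intermediate to high staining, so they need not mark the gate's midpoint. Against CD62L-neg GMPs, 0 of 8 genes passed, where 2.92% of all genes were higher and 3.47% lower. In that comparison 0 genes had an unadjusted p under 0.05 and DESeq2 called 0. Between CD62L-high and CD62L-int GMPs 0 of 8 passed, where 0.858% of all genes were higher and 1.17% lower. Here 2 genes had an unadjusted p under 0.05 and DESeq2 called 1. These were Alas1, at -0.47 ± 0.15 on the log2 scale (adjusted p = 0.111), and Tfrc, at -0.44 ± 0.17 (adjusted p = 0.226, edgeR). Every CD62L-high library lay below every CD62L-int library for both genes. Without bulk CMP replicate 2 in the shared fit, both genes passed here.

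Between the like-named CD62L fractions of the 2 gates, whose cuts differ, Alas1 was higher in GMPs both times. CD62L-neg GMPs exceeded CD62L-neg CMPs by 3.95 ± 0.17 on the log2 scale, a 15.5-fold difference (adjusted p = 4.45e-14), and CD62L-high GMPs exceeded CD62L-high CMPs by 1.49 ± 0.15, a 2.81-fold difference (adjusted p = 1.92e-07, edgeR). Tfrc was 3.08-fold higher in CD62L-neg GMPs than in CD62L-neg CMPs (log2 1.63 ± 0.17, adjusted p = 1.59e-07, edgeR). Between the CD62L-high fractions Tfrc differed by 0.04 on the log2 scale, with a 95% interval of -0.31 to 0.38. In the CD62L-neg comparison 2 of 8 genes were higher, where 11.7% of all genes were, and 0 lower, where 9.77% were. Alad (log2 -0.61, adjusted p = 0.0978) and Urod (-0.32, adjusted p = 0.306, edgeR) did not pass there. For both, every CD62L-neg GMP library lay below every CD62L-neg CMP library, and Alad passed in 1 of 15 refits. Libraries of Uros, Cpox, Ppox and Fech overlapped. In the CD62L-high comparison 1 of 8 was higher, where 5.7% of all genes were, and 0 lower, where 6.82% were. Fech stood at 27.1, 26.9 and 25.6 CPM in CD62L-high GMPs, against 23.0, 12.8 and 16.3 CPM in CD62L-high CMPs, without overlap and short of the threshold (0.61 ± 0.21, adjusted p = 0.0654, edgeR). Fech passed there without bulk CMP replicate 2 or without CD62L-high CMP replicate 1.

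Bulk GMPs against bulk CMPs gave the same direction for Alas1, which was 5.78-fold higher in bulk GMPs (log2 2.53 ± 0.16, adjusted p = 1.1e-10, edgeR). It was 1 of 8 genes higher, where 9.72% of all genes were, and 0 were lower, where 10.9% were. Tfrc had 114, 111 and 108 CPM in bulk GMPs, against 57.9, 111 and 78.7 CPM in bulk CMPs, and the value at 111 CPM came from bulk CMP replicate 2. Tfrc did not pass with that library (log2 0.44, adjusted p = 0.069), and passed without it (0.70, adjusted p = 0.000978, edgeR). Cpox behaved alike, with 38.7, 33.0 and 30.0 CPM in bulk GMPs, against 20.8, 37.1 and 19.6 CPM in bulk CMPs. Its log2 difference was 0.42 (adjusted p = 0.196) with bulk CMP replicate 2 and 0.75 (adjusted p = 0.0147, edgeR) without it. CD62L-neg GMPs against bulk GMPs gave 0 of 8, where 2.91% of all genes were higher and 3.42% lower. There 3 genes had an unadjusted p under 0.05 and DESeq2 called 0. With only those 2 groups in the fit, Alas1 (adjusted p = 0.00537) and Tfrc (0.0134, edgeR) passed as higher in CD62L-neg GMPs.

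Alas2, the erythroid first enzyme (chrX:150547375-150570638), was close to absent. It had 11, 1 and 2 counts in CD62L-neg CMPs, 0, 0 and 5 in CD62L-high CMPs, 1, 0 and 2 in CD62L-high GMPs, 1, 1 and 0 in CD62L-neg GMPs and none in the libraries of the other 3 populations. It did not pass the filter and was not tested. Pooled over libraries and scaled for depth, its level in CD62L-neg CMPs was 5.31 times that in CD62L-high CMPs, with an exact 95% counting interval of 1.81 to 18.8. Of the 14 counts 11 came from CD62L-neg CMP replicate 1, and without it the ratio was 1.76, with an interval of 0.273 to 9.02. Counting intervals leave out the spread between libraries. Its exons share 311 bases with Apex2 on the opposite strand, and whether counting used strand was not stated.

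The balance of the first enzyme and the later ones was compared per kb of exon within each library, since counts of different genes depend on length. Alas1 was divided by the sum of Alad, Uros, Urod, Cpox, Ppox and Fech. The ratio was 2.42 ± 0.15 in CD62L-high GMPs, 3.38 ± 0.29 in CD62L-int GMPs, 3.07 ± 0.36 in CD62L-neg GMPs and 2.90 ± 0.31 in bulk GMPs (SD, n = 3). In CMPs it was 0.913 ± 0.077 in CD62L-high cells, 0.159 ± 0.032 in CD62L-neg cells and 0.484 ± 0.108 in bulk cells. No CMP library came above 0.983 and no GMP library below 2.26. The summed level of the 6 later enzymes moved far less, from 84.7 to 118 CPM in CD62L-high CMP libraries, 136 to 147 CPM in CD62L-neg CMP libraries and 101 to 134 CPM in the GMP libraries. Alas1 had the highest level per kb of the 9 genes in 17 of 21 libraries, and in all 12 GMP libraries Tfrc came next. With the length of the longest transcript in place of all exons, Alas1 led in 17 libraries again, but Tfrc came next in 10 of the 12 GMP libraries. Urod then exceeded Tfrc in CD62L-high GMP replicates 2 (18.2 against 17.7 CPM per kb) and 3 (19.0 against 15.5 CPM per kb). In the 3 CD62L-neg CMP libraries Urod or Alad was highest instead.

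**Figure D3:**
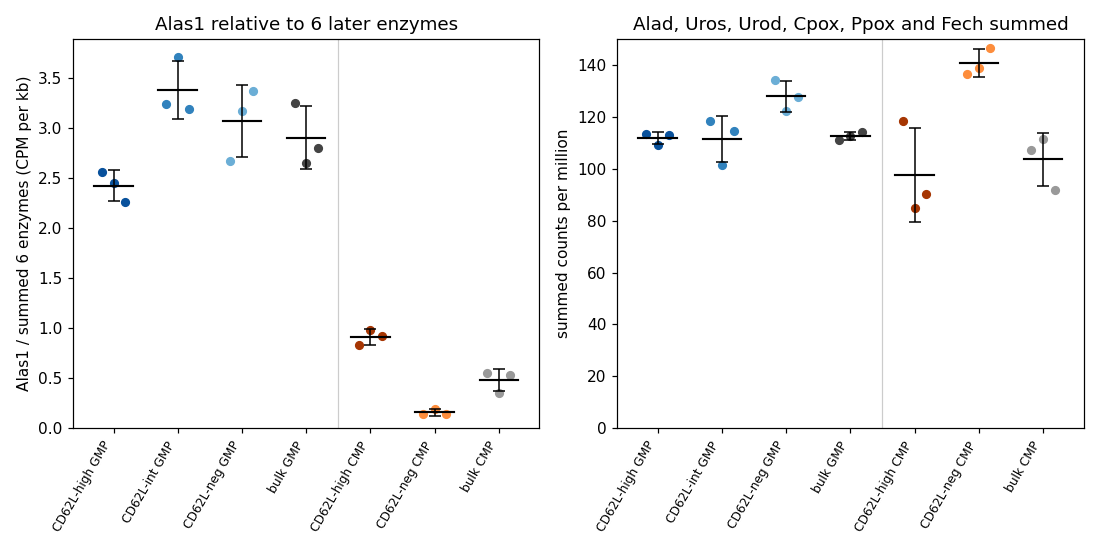
Left, the ratio of Alas1 to the sum of 6 later enzymes, each per kb of exon, and right, the summed CPM of those enzymes, by population (points: libraries; lines: mean and SD, n = 3). The ratio averages 0.159 in CD62L-neg CMPs and 2.42 to 3.38 in the 4 GMP populations, while the sum stays between 84.7 and 147 CPM in every library.

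Genes around the pathway were read from lists of iron handling, carriers, sensors, breakdown and heme-binding proteins. In CD62L-high against CD62L-neg CMPs, 4 of 17 iron uptake, storage and export genes tested rose and 4 fell (median log2 change 0.16, against 0.01 over all genes), where 9.94% of all genes rose and 7.27% fell. Tfr2, which encodes transferrin receptor 2, a partner of the erythropoietin receptor, went the other way from Tfrc. It had 6.88, 10.03 and 14.4 CPM in CD62L-high CMPs, against 71.2, 83.0 and 75.7 CPM in CD62L-neg CMPs (log2 -2.87 ± 0.34, adjusted p = 7.8e-07, edgeR). In GMPs it averaged 0.835 CPM in CD62L-high cells and 30.3 CPM in CD62L-neg cells (-5.11 ± 0.42, adjusted p = 3.9e-09, edgeR). Tfr2 therefore fell with CD62L in both gates, where Tfrc fell in GMPs and rose in CMPs. The exporter Slc40a1 (-4.67, adjusted p = 2.89e-05) and the endosomal iron carrier Slc11a2 (-1.64, adjusted p = 0.00146, edgeR) were also lower in CD62L-high CMPs. Slc39a8 (1.29, adjusted p = 0.00416), Hfe (1.80, adjusted p = 0.00559) and Lcn2 (4.20, adjusted p = 0.00938, edgeR) were higher there. Lcn2 had at most 1.03 CPM in CD62L-high CMPs, and its call was lost without CD62L-neg CMP replicate 2.

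**Figure D4:**
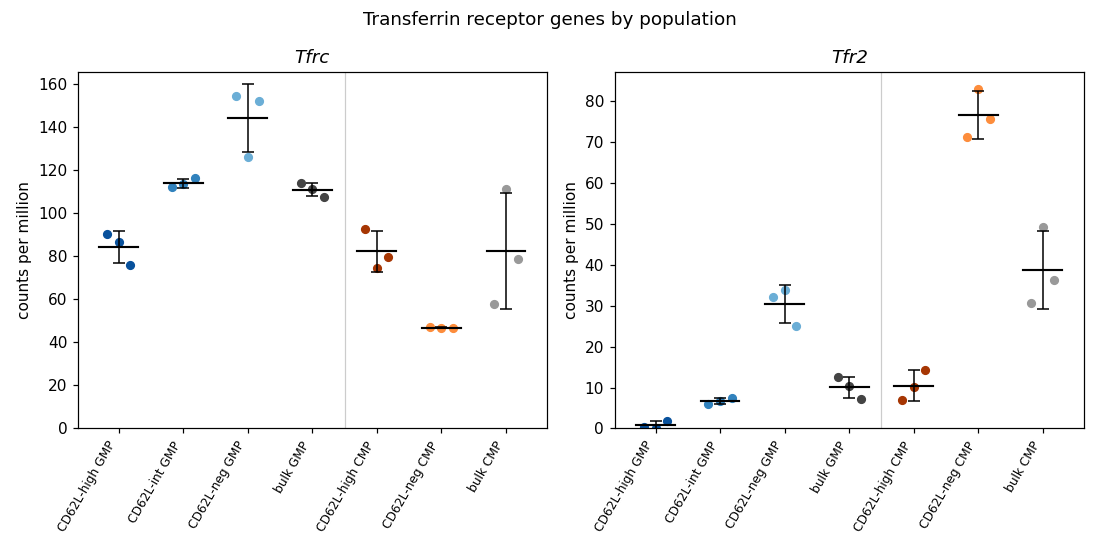
CPM of the transferrin receptor genes Tfrc (left) and Tfr2 (right) by population (points: libraries; lines: mean and SD, n = 3). CD62L-neg CMPs have the lowest Tfrc (46.8 CPM) and the highest Tfr2 (76.6 CPM), and CD62L-high GMPs have the lowest Tfr2 (0.835 CPM).

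Of 20 carriers and mitochondrial iron supply genes tested, 1 rose and 3 fell with high CD62L in CMPs, beside the same 9.94% and 7.27% of all genes. Tspo, an outer membrane protein that binds porphyrins, rose (1.29 ± 0.23, adjusted p = 0.000264), and Isca1, an iron-sulfur cluster assembly gene, fell (-1.21 ± 0.19, adjusted p = 3.14e-05, edgeR). Among 11 sensors tested 1 was higher and 1 lower, shares near those of all genes. Bach1, a repressor that heme releases from DNA, stood at 56.1 ± 2.0 CPM in CD62L-high CMPs, against a mean of 98.8 ± 19.4 CPM in CD62L-neg CMPs (SD, n = 3; log2 -0.82, adjusted p = 0.000118, edgeR). It averaged 47.5 ± 4.8 CPM in CD62L-high GMPs and 92.8 ± 4.2 CPM in CD62L-neg GMPs (-0.96, adjusted p = 1.71e-05, edgeR). Of 4 breakdown genes 1 passed, as lower, where 7.27% of all genes were: Blvrb, a biliverdin reductase, had a mean of 2.19 CPM in CD62L-high CMPs, against 20.98 CPM in CD62L-neg CMPs (-3.25, adjusted p = 3.09e-07, edgeR).

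The last list held heme-binding proteins of myeloid cells. Of 9 tested, 5 rose and 3 fell with high CD62L in CMPs (median log2 change 0.57, against 0.01 over all genes), where 9.94% of all genes rose and 7.27% fell. Mpo, myeloperoxidase, had 7544, 6656 and 6458 CPM in CD62L-high CMPs, against 1569, 924 and 751 CPM in CD62L-neg CMPs (2.67 ± 0.20, adjusted p = 4.81e-10, edgeR). It averaged 17592 CPM in CD62L-high GMPs and 20676 CPM in CD62L-neg GMPs, which did not pass. The change of Mpo in GMPs minus that in CMPs was -2.90 on the log2 scale (adjusted p = 1.62e-07, edgeR). In that test of the difference between gates, 3 of 9 genes of this list were negative and 1 was positive. Epx, the eosinophil peroxidase, had 0, 0.297 and 0.670 CPM in CD62L-high GMPs, against 298, 422 and 369 CPM in CD62L-neg GMPs (-10.01 ± 0.67, adjusted p = 4.92e-10, edgeR). In CMPs it had at most 0.870 CPM in CD62L-high cells and 0 counts in CD62L-neg cells. Cybb, the heme-binding subunit of the phagocyte oxidase, rose with CD62L in both gates, by 4.80 in CMPs (adjusted p = 1.45e-10) and by 3.39 in GMPs (adjusted p = 3.05e-10, edgeR). Ptgs1, a cyclooxygenase, was lower in CD62L-high CMPs (-3.21, adjusted p = 8.08e-08, edgeR), as was Tbxas1, thromboxane synthase (-1.63, adjusted p = 2.03e-05, edgeR).

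The genes closest to each pattern over the 21 libraries were named by Pearson's r of log2(CPM + 1), as a description among 9287 genes whose points share libraries and populations. Alas1 was most like P4hb, the disulfide isomerase of the endoplasmic reticulum (r = 0.986), Ssr1, part of its translocon (0.985), and Lta4h, leukotriene A4 hydrolase (0.984). Tfrc was most like Man1a, a mannosidase of glycan trimming (0.938), Elovl5, a fatty acid elongase (0.934), and Cst7, a cystatin (0.922). Alad was nearest to Ddit4 (0.847), Parp12 (0.841) and Prdm11 (0.834), and Urod to Pon3 (0.815), Cd84 (0.805) and Rbbp9 (0.785). For the genes that did not pass the joint test the leading r was lower, at 0.775 for Fech with Uqcrc2, 0.746 for Ppox with Nme7, 0.736 for Cpox with Fam20b and 0.660 for Uros with Snhg12. Ppox shares 791 exon bases with B4galt3 on the opposite strand, so its counts are uncertain where counting did not use strand.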

How the data were processed

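The deposited file held raw counts of reads per Ensembl gene for all 21 libraries. The authors made these counts with bcl2fastq, Trim Galore, HISAT2 and HTSeq on mm10 (versions and the strand setting are not given in the sources used here). The labels name a SMARTer Stranded kit and the methods another SMART-Seq kit, and the methods state that 1 bulk CMP sample was excluded for its low mapping rate without saying which, so all 3 were kept and each was also left out. Groups came from sample titles. Of 47643 identifiers, 47224 matched GENCODE vM21.

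Genes were filtered with filterByExpr (14801 kept), scaled by TMM and compared in 1 fit of all libraries without covariates, with the quasi-likelihood F test of edgeR 4.0.16 in R 4.3.3 and Benjamini-Hochberg adjustment at 0.05. Standard errors and intervals came from the F statistic. Levels between genes were planned as TPM, but short gene models take most of a TPM total, so only ratios and orders within a library, which TPM and CPM per kb share, are given. DESeq2 1.42.0, RLE scaling, no filter, smaller sets of libraries, a replicate block, a fold over 2 and leaving out each library were alternatives. The test was tried on simulated data. Same-numbered libraries did not deviate together in 8 comparisons (correlations -0.07 to 0.06), and the main fit held no pairing. That does not show that same-numbered libraries had separate sources, which were not stated.

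Named genes are the 9 members, of each list at most 3 that passed per direction and comparison, and the 3 most similar genes. Members and lists were chosen with earlier results of these data known.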

Additional observations from a re-analysis of the deposited data

Results flagged for a closer look

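The change of Alas1 between the sorted CD62L fractions differed between the gates in a test of the difference itself. The log2 fold change of CD62L-high over CD62L-neg cells in GMPs minus that in CMPs was -2.46 (adjusted p = 4.88e-08, edgeR). Alas1 was lower in every CD62L-high GMP library and higher in every CD62L-high CMP library than in the CD62L-neg libraries of its gate. Over 21 refits this difference lay between -2.61 and -2.37 and passed each time.

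For Tfrc the same difference was -1.59 (adjusted p = 8.63e-05, edgeR). It lay between -1.68 and -1.50 over 21 refits, passed each time, and its libraries were separated in the same way in both gates. In the same test 6 of 6 mast cell and basophil markers (median -5.68) and 4 of 7 monocyte markers were negative, and 1 monocyte marker was positive. Most of these markers had the same sign in both gates. Their part in the differences of Alas1 and Tfrc was not tested. The fractions were also cut differently in the 2 gates. Each population has 3 libraries, so no group was searched for single outlying libraries.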

How the results depend on the processing

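Of 314 refits of the 20 single-gene results that passed in some fit, 298 kept their direction and side of the threshold, 12 came to pass, 4 no longer passed and 0 changed sign. The 52 pairs of gene and comparison that passed nowhere changed sign in 24 of 822 refits, at log2 changes of at most 0.31. Of 8 tested genes, the number that passed moved by over 1.5 times as follows. In CD62L-high against CD62L-neg CMPs, 4 became 1 with a fold over 2 as well, and leaving out 1 library gave 2 to 4. In CD62L-high against CD62L-neg GMPs, 2 became 0 with a fold over 2 as well. In CD62L-neg against bulk GMPs, 0 became 2 with only the groups compared. In CD62L-high against CD62L-int GMPs, 0 became 2 with the populations sharing a figure and 1 with DESeq2, and leaving out 1 library gave 0 to 2. Leaving out 1 library gave 1 to 3 in bulk GMPs against bulk CMPs and 1 to 2 in CD62L-high GMPs against CD62L-high CMPs. The 2 extra calls in bulk GMPs against bulk CMPs and in CD62L-high against CD62L-int GMPs came without bulk CMP replicate 2, and the cause was not tested. The replicate block left the number of passed genes as it was in every comparison, for example 4 of 8 in CD62L-high against CD62L-neg CMPs. The numbers share no stated source, and no correlation reached 0.1.

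Over all genes, calls in CD62L-high against CD62L-int GMPs were 300 in the fit of all libraries, 573 without a filter, 544 with DESeq2, 109 with only the groups compared, 638 without bulk CMP replicate 2 and 100 to 179 without a CD62L-int library or CD62L-high GMP replicate 1. In CD62L-neg against bulk GMPs they were 937 in the fit of all libraries, 1833 with only those groups and 613 without bulk GMP replicate 2. In bulk GMPs against bulk CMPs they were 3049 and, with only those groups, 1569. The CD62L difference between gates was called for 1088 genes, and for 1742 without bulk CMP replicate 2. A fold over 2 left 1549 of 2547 genes in CD62L-high against CD62L-neg CMPs, 1700 in bulk GMPs against bulk CMPs, 602 in CD62L-neg against bulk GMPs, 180 in CD62L-high against CD62L-int GMPs, 1553 in CD62L-high against CD62L-neg GMPs, 1865 between the CD62L-neg fractions and 1131 between the CD62L-high fractions. Lengths of the longest transcript raised the ratio of Alas1 to the later enzymes to 0.194 in CD62L-neg CMPs and 3.83 in CD62L-int GMPs. With a pseudocount of 4, 23 of 24 similar genes were named again. Uros, at under 10 CPM in every library, and Alas2 are limited by depth.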
